A study of Mus musculus with 2 samples.

Results

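The cycling keratinocytes of imiquimod-treated mouse epidermis comprised 2181 cells of a single epidermal library. They were chosen from cells with at least 200 detected genes and at most 10% mitochondrial UMIs (unique molecular identifiers, each of which counts 1 captured mRNA molecule). A member had at least 50 UMIs of Krt5, Krt14, Krt1 and Krt10 together per 10000 of its own UMIs, at least 3 UMIs of Mki67 and Top2a together, and fewer than 15 UMIs of the γδ T cell receptor genes Trdc and Trdv4 per 10000. These 2181 cells were 41.5% of the 5258 cell barcodes of the epidermal library, 52.3% of the 4173 cells that passed the filters on genes and mitochondrial UMIs, and 63.3% of the 3446 keratinocytes that passed the keratin and T cell criteria. The series held 10634 cells in all, and the dermal library of 5376 cells contained 1 cell that passed the keratinocyte criteria and 0 members.

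By the sample labels, both libraries came from wild-type C57BL/6 mice, 10 weeks old, whose ear skin received imiquimod (IMQ), an agonist of Toll-like receptor 7 that induces psoriasis-like inflammation, on 5 consecutive days. The study's methods instead give a younger age, and male mice, for this model, and the study used back skin in other experiments; which applies to these libraries was not settled by the sources used here. Epidermis and dermis were separated enzymatically with Dispase and live cells were loaded on the 10x Chromium 3′ platform; the study's methods describe the dermal cells as sorted for CD45. The labels do not say whether a library held cells of 1 mouse or of a pool, and no untreated skin was included in the samples analysed here. With 1 library per tissue there was no replicate, so no statistical test was made, and every interval below is a 95% interval for counting error alone. The epidermal library held 108768396 UMIs (median 16965 per cell) and the dermal library 41258087 (median 6086). The libraries shared 45 cell barcodes, of which 18 belonged to members; without these, 2163 members remained.

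Interfollicular epidermis renews from keratinocytes attached to the basement membrane, which express Krt5 and Krt14, divide, and switch to Krt1 and Krt10 when they leave the basal layer. Progress through the cycle is marked by successive sets of transcripts: E2F-dependent genes for DNA replication around the G1/S transition, replication-dependent histone genes during DNA synthesis, and genes of spindle assembly and chromosome segregation in G2 and mitosis. In psoriasis and in its IMQ model the epidermis thickens, cell division increases, and keratinocytes express the stress keratins Krt6a, Krt6b, Krt16 and Krt17 together with antimicrobial proteins and chemokines.

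The 3 genes that name the population were captured in most members. The rule set a minimum for the sum of Mki67 and Top2a and for the sum of 4 keratins, not for any single gene. Mki67 (ENSMUSG00000031004; GRCm38 chromosome 7, 135689784 to 135716361, minus strand), which encodes a coat protein of mitotic chromosomes, had at least 1 UMI in 95.6% of members and 124 UMIs per 1000000 (of all UMIs summed over the cells, written CPM below). Top2a (ENSMUSG00000020914; chromosome 11, 98992943 to 99024189, minus strand), the topoisomerase that untangles replicated DNA, had at least 1 UMI in 95.4% and 216 CPM. Krt14 (ENSMUSG00000045545; chromosome 11, 100203162 to 100207548, minus strand) was present in every member, with 4 UMIs in the lowest cell, a median of 658 and 3024 in the highest. The summed Mki67 and Top2a count ran from 3 to 43 UMIs, with quartiles of 5, 11 and 18. These values describe the selection and support nothing beyond it.

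Members were deeply sampled cells, with a median of 36211 UMIs and 4806 genes, against 3431.5 UMIs and 1163.5 genes in the 634 keratinocytes without a Mki67 or Top2a UMI. The remaining 631 keratinocytes had 1 or 2 such UMIs. The 634 cells passed the keratinocyte criteria, but their lower quartile of Krt14 was 62.0 UMIs per 10000, against 152 in members. Their upper quartile of Langerhans cell and myeloid markers was 34.8 UMIs per 10000, against 3.18 in members. Whether some of the 634 were other cell types was not tested. A fixed minimum of 3 UMIs is reached more easily by a deep cell, and the share of keratinocytes that passed it followed depth. It was 0.682% (3 of 440 cells) below 5000 UMIs, 26.0% between 5000 and 10000, 82.2% between 30000 and 40000, and 97.4% (377 of 387 cells) at 50000 or more. The summed level of the pair did not follow the same course: it was 102 CPM in the shallowest group and between 207 and 318 in all groups above 5000 UMIs. When each of the 2508 keratinocytes with at least 20000 UMIs was thinned at random to 20000, leaving out the 938 shallower cells, 66.8% (64.9 to 68.6%, exact binomial interval) had 3 or more. Whether shallow keratinocytes below the limit were dividing was not tested.

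**Figure D1:**
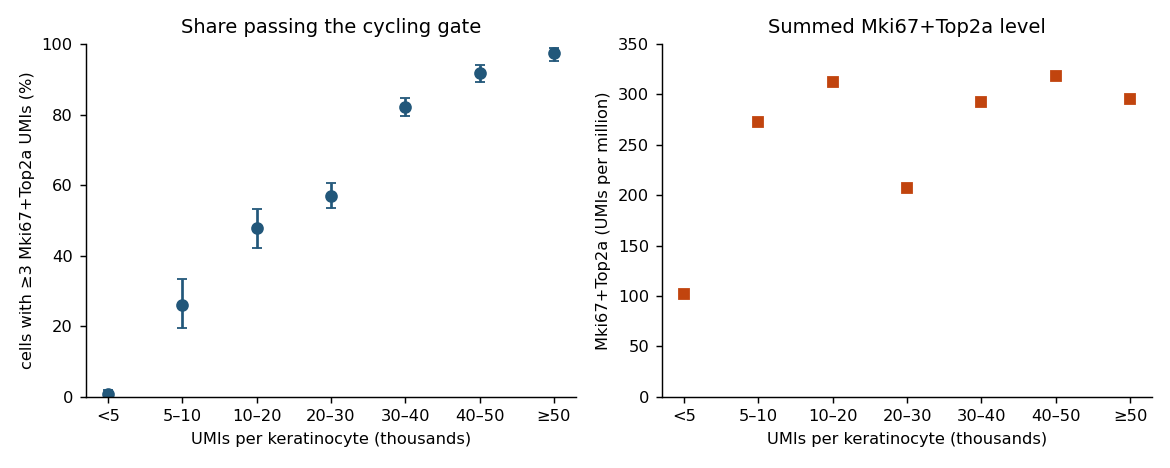
Left, the share of epidermal keratinocytes with at least 3 Mki67+Top2a UMIs against their total UMIs, with exact 95% binomial intervals; right, the summed Mki67+Top2a level (CPM) in the same groups. The share climbs from 0.682% to 97.4% while the level lies between 207 and 318 in all groups above 5000 UMIs.

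Epidermal cells outside the keratinocyte criteria were examined as a background for the pair, although whether the T cells among them divided was not tested. The 431 epidermal T cells, identified by Trdc or Trdv4 and with a median of 2365 UMIs, carried a mean of 0.195 Mki67+Top2a UMIs, and 3 of them (0.696%, 0.144 to 2.02%) had 3 or more. Per UMI the gap to members was smaller than these counts show, at 78.0 against 339.7 CPM, and the selection fixed the members' level. The median depth of members was 36211 UMIs. The T cells also had a median of 60.0 UMIs of the 4 gate keratins per 10000, above the limit of 50 that defined a keratinocyte; how much free RNA added to either count in members was not tested. The other 296 low-keratin cells of this library carried a mean of 0.872, and 30 had 3 or more; whether some of these divided was not tested. The boundary itself was gradual. Among keratinocytes with at least 20000 UMIs, the 184 cells with 2 Mki67+Top2a UMIs, just outside, had a median of 27.9 UMIs per 10000 for the 52-gene G2/M list and 17.9 for the 43-gene S phase list, and the 178 cells with 3, just inside, had 32.1 and 22.9. Neither list contained Mki67 or Top2a.

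Within the members, the cell-cycle lists were highest at different points of the Mki67 and Top2a range. Among cells with at least 20000 UMIs the G2/M list had a median of 36.1 UMIs per 10000 at 3 to 5 Mki67+Top2a UMIs (475 cells), 46.7 at 6 to 10 (425 cells), 69.1 at 11 to 20 (668 cells) and 83.4 at 21 or more (409 cells). The S phase list was highest in the second of these groups: its medians were 23.3, 27.9, 22.6 and 20.4. The replication-dependent histones, whose transcripts are made during DNA synthesis, had medians of 4.78, 13.0, 22.4 and 19.3. Across the 2181 members the S phase and G2/M levels were negatively correlated (Pearson r = -0.33), and Mki67+Top2a followed the G2/M level (r = 0.56) and not the S phase level (r = 0.07); these are descriptions over cells of 1 library, whose levels share a denominator.

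**Figure D2:**
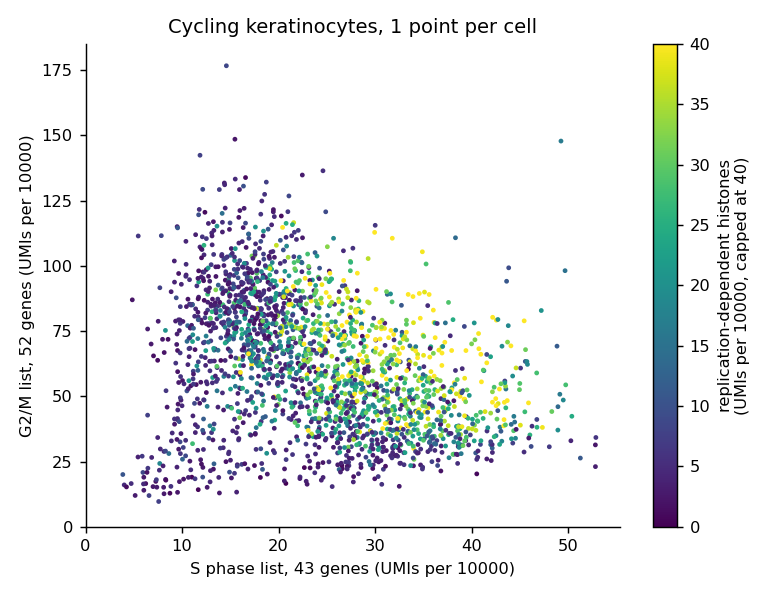
Each point is 1 of the 2181 members, placed by its S phase list (43 genes) and G2/M list (52 genes), both in UMIs per 10000, and coloured by the 15 replication-dependent histone genes on the same scale, capped at 40. Cells with high histone levels lie mainly between the cells that are high for the S phase list and those high for the G2/M list.

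To follow the order of transcripts, members were sorted by the share of G2/M UMIs among their S phase and G2/M UMIs and cut into 8 groups of 272 or 273 cells. The order is a ranking by these lists and not a measure of time. Histone transcripts, which the order did not use, peaked in the middle: their median was 8.04 UMIs per 10000 in the first group, 23.3 in the third and 4.76 in the last. Cells with at least 10 histone UMIs per 10000 made up 45.1% of the first group, 70.0% of the third and 18.0% of the last. Over all members 1157 of 2181 (a share with an interval of 50.9 to 55.2%) were above this level, which was set after the values were seen, and 165 lay between 8 and 12. In the basal-leaning keratinocytes with at least 20000 UMIs and 0 Mki67+Top2a UMIs, 2 of 123 cells were above it.

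Cyclins were distributed unevenly along this ranking. Ccne1, the cyclin E that drives entry into S phase, went from 47.3 CPM in the first group to 5.82 in the last, and E2f1, the transcription factor of the G1/S genes, from 31.6 to 3.34. Cdt1, which loads the replicative helicase on origins, and the helicase subunit Mcm3 went from 52.7 to 12.1 and from 125 to 24.2. The linker histone Hist1h1b was highest in the third group, at 127, and lowest in the last, at 18.6. Ccna2, cyclin A, went from 55.7 to 141, Ccnb1, the mitotic cyclin B, from 45.1 to 254, and the mitotic kinase Plk1 from 12.4 to 95.4. Ccnd1, the cyclin D that answers growth signals, varied least among these cyclins, between 62.0 and 89.7.

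**Figure D3:**
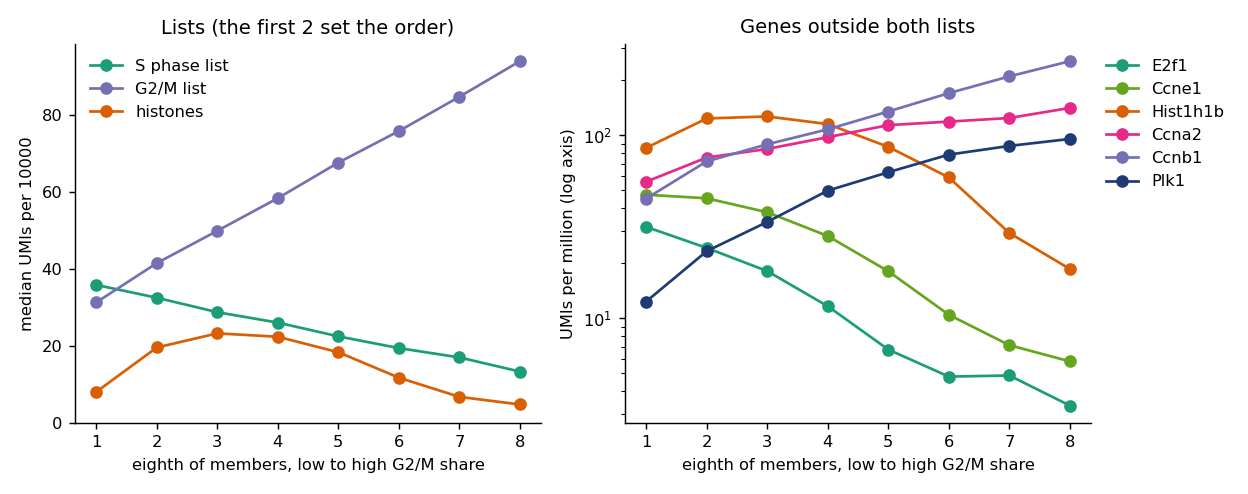
Members in 8 groups ordered from low to high G2/M share. Left, the median level of the S phase, G2/M and histone lists (UMIs per 10000); right, summed levels of 6 genes outside the 2 lists that set the order (CPM, log axis). Histones and Hist1h1b are highest in the third group, E2f1 and Ccne1 in the first, and Ccna2, Ccnb1 and Plk1 in the last.

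The 546 members with the highest G2/M share (81.2% or more) and the 546 with the lowest (59.9% or less) were also compared gene by gene. These limits cut a continuous range, and 285 and 164 members lay within 2 percentage points of them. Of 10444 genes that reached 50 UMIs in the pooled cells, 1.74% were at least 2-fold higher and 1.86% at least 2-fold lower in the G2/M-high cells. Among genes with at least 200 UMIs, the 10 with the largest ratios were Cenpf, Gas2l3, Ube2c, Cdc25c, Nusap1, Aspm, Prr11, Hmmr, Arl6ip1 and Cenpe. Aspm, a spindle pole protein, Prr11 and Arl6ip1 were on neither list: Aspm stood at 31.7 against 5.21 CPM, a 6.07-fold difference. At the other end stood Ung, Cdc6, Ccne2, Ccne1, E2f1, Wdr76, Exo1, Slfn9, Hells and Hist1h1a. Of these, Ccne1 (6.49 against 46.3 CPM), E2f1 (4.13 against 27.8), Slfn9 (5.90 against 30.5) and Hist1h1a (4.81 against 21.8) were outside the lists that chose the cells. Members of the lists are named as a description of that choice.

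All 13 mitotic kinesins, the motor proteins of the spindle, had a positive ratio in this comparison and 12 were at least 2-fold higher in the G2/M-high cells, with a median log2 ratio of 1.59 against -0.01 over all genes tested; 5 of the 13 were also on the G2/M list. The histones had a median of -0.74, and 7 of 15 were at least 2-fold lower. Of 14 genes of nucleotide synthesis, 0 were at least 2-fold higher and 2 lower (median -0.38); Rrm1, Rrm2 and Tyms were also on the S phase list that chose the cells. Among cell-cycle transcription factors Foxm1, which activates mitotic genes, stood at 14.5 against 6.33 CPM, and E2f1 at the lower level given above. The median log2 ratio was 0.07 for the basal layer list, 0.22 for the spinous list and -0.01 for the alarmins and cytokines, of which 1 of 20 was at least 2-fold higher and 3 lower. The Langerhans cell and myeloid markers had 9 of 10 positive ratios (median 0.33) and summed to 389 against 314 CPM, and the median depth was 40095 UMIs in the G2/M-high and 32973.5 in the S-high cells; their part in these values was not tested. The stress keratins Krt6a (0.71), Krt16 (0.96) and Krt6b (1.05) had larger ratios than Krt17 (0.02).

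Promoters of genes from either end of the ranking are shown as examples of the letters searched; the lists themselves set the ranking. Sequences are the 200 bases before the annotated start, 5′ to 3′ on the gene's strand, from RefSeq on GRCm38.p6, and were chosen by a different rule in each list. Among the genes considered, the 3 G2/M genes are those with the highest ratio whose 200 bases hold both CHR and CCAAT letters. The 3 S phase genes are those with the lowest ratio whose 200 bases hold E2F letters. Genes of a chromosome left out of this choice were not considered, whatever their letters. Cdc25c of the G2/M list (log2 ratio 2.76) was among them. Genes with more extreme ratios but without those letters were passed over, so the 2 sets of sequences differ in these letters by choice and cannot be compared for them. Capitals mark matches to 3 kinds of letters, each searched on both strands. The first is the cell cycle genes homology region (CHR), written TTTGAA on one strand. The second is the CCAAT box, whose name gives its letters. In Ube2c a forward and a reverse match to it overlap. The third is an E2F-type site, for which TTTCCCGC was searched along with the variant TTTCGCGC, the variant TTTGCCGC and the variant TTTGGCGC. The G2/M genes are Ube2c, the ubiquitin-conjugating enzyme of the anaphase-promoting complex (chr2:164769729-164769928, plus strand), Cdc20, its activator (chr4:118437344-118437543, minus strand), and Ccnb2, a cyclin B (chr9:70421555-70421754, minus strand).
Ube2c: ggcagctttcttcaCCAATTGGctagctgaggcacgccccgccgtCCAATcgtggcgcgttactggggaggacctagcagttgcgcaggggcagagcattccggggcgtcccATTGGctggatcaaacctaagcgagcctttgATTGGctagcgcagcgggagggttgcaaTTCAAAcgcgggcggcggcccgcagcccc
Cdc20: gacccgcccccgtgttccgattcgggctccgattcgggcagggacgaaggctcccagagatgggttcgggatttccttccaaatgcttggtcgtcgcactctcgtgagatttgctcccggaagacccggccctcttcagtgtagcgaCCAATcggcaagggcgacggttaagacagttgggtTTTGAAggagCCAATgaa
Ccnb2: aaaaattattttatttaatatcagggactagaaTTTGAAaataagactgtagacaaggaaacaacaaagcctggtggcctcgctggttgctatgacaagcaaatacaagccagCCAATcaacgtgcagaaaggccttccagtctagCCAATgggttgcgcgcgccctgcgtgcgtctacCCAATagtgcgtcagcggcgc
The S phase genes are Cdc6, which loads the helicase at origins (chr11:98907951-98908150, plus strand), Hells, a chromatin remodeler (chr19:38930790-38930989, plus strand), and Dtl, a substrate receptor of a ubiquitin ligase (chr1:191575545-191575744, minus strand). By the GENCODE gene positions, all of the Cdc6 stretch and part of those of Hells, Ube2c and Cdc20 lie inside the gene.
Cdc6: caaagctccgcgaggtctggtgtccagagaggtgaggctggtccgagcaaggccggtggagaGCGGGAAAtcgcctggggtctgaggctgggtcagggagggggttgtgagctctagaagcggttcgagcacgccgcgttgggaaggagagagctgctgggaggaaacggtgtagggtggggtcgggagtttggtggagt
Hells: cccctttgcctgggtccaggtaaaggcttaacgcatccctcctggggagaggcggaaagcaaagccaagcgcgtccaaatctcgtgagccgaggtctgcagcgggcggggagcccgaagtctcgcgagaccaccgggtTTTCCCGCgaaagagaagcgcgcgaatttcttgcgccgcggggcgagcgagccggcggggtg
Dtl: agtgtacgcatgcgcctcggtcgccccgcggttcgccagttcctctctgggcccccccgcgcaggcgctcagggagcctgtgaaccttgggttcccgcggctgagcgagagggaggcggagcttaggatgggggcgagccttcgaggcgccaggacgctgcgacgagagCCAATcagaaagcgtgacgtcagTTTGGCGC

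In the 250 bases before the start, the CHR letters were present in 17 of the 45 G2/M promoters with a RefSeq entry (37.8%), in 5 of 31 S phase promoters (16.1%) and in 16.3% of all 27025 promoters. CCAAT was present in 75.6%, 71.0% and 34.5% of the same sets, and CHR and CCAAT together in 33.3%, 12.9% and 5.73%. The E2F-type letters were present in 2 of 45 (4.44%), 8 of 31 (25.8%) and 1.91%. Where a gene had several annotated starts the first listed was used. A match describes the letters and is no evidence that a factor binds there.

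What set members apart from keratinocytes without a Mki67 or Top2a UMI was examined in basal-leaning cells, in which Krt5 and Krt14 UMIs outnumbered those of Krt1 and Krt10. Because members were selected on Mki67 and Top2a, the contrast is a description and was not tested. The 2179 basal-leaning members were compared with 606 such cells of all depths, as CPM of the summed cells with 0.5 UMIs added to each sum. The comparison cells were shallow (median 3318.5 UMIs) and carried markers of other cell types: the 10 Langerhans cell and myeloid markers summed to 3555 CPM in them and 341 in members, with Cd74 the most abundant in both, and the 7 melanocyte markers to 109 and 3.32. Of genes with at least 200 UMIs, the 10 with the lowest ratios at all depths included Dct, a melanocyte enzyme. Hdc and Mcpt8, which basophils express, were also among them. The rest were the myeloid or inflammatory genes Ccl9, Chil3, Ccl6, Ccl3, Il1b, Wfdc17 and Lyz2. The same comparison was therefore also made with cells of at least 20000 UMIs, 1975 members against 123 cells (median 25355 UMIs), in which these sums were 313 against 577 and 3.31 against 3.30. Their part in the differences was not tested, and values below are from the deeper cells unless stated.

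Of 11545 genes with at least 50 UMIs, 397 (3.44%) were at least 2-fold higher and 949 (8.22%) at least 2-fold lower in members at all depths. In the deeper cells 541 of 11314 genes (4.78%) were higher and 471 (4.16%) lower. There the members held 78916895 UMIs and the comparison cells 3331274, so a gene could reach 50 UMIs almost wholly through the members. How much counting error added to these counts of genes was not tested. All 52 genes of the G2/M list had a positive ratio and 45 were at least 2-fold higher, with a median log2 ratio of 1.85 against 0.05 over all genes; the corresponding values at all depths were 44 genes and 1.62. The S phase list was less separated: 14 of 43 genes were at least 2-fold higher, with a median of 0.78. Rad51ap1 (2.34), E2f8 (1.81) and Cenpu (1.73) had the largest log2 ratios of that list, while the helicase subunits Mcm2 and Mcm6 had -0.17 and 0.22.

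Among named genes with at least 200 UMIs in all and UMIs in both groups, the 7 highest ratios in the deeper cells belonged to Prr11, Esco2, Hist1h2ap, Aurkb, Nusap1, Neil3 and Cenpf; Prr11 and Neil3 rested on 2 and 3 UMIs in the comparison cells. Aurkb, the kinase that corrects kinetochore attachment, stood at 65.7 against 6.90 CPM (9.31-fold, log2 interval 2.66 to 3.91), the spindle protein Nusap1 at 64.6 against 7.20 (8.78-fold) and the kinetochore protein Cenpf at 93.9 against 10.8 (8.57-fold). Kif14, a kinesin of cytokinesis, had 481 UMIs in members and 0 in the comparison cells. The lower end of its log2 interval was 2.45, with no upper end, which leaves its place among these genes unknown. Hist1h2ap stood at 882 against 85.9 (10.3-fold), Hist1h1b at 79.2 against 10.5, and the cohesin acetyltransferase Esco2 at 41.6 against 3.90. All 13 mitotic kinesins and 12 of 15 histones were at least 2-fold higher, as were 7 of 13 condensin and cohesin genes; there the condensin subunits Ncapg (2.37), Smc4 (1.87) and Smc2 (1.80) had larger log2 ratios than the cohesin subunits Smc1a (0.44), Smc3 (0.71) and Rad21 (0.80).

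Among cyclins and their partners 9 of 18 were at least 2-fold higher in members. Cdk1, the mitotic kinase, stood at 221 against 44.4 CPM (4.96-fold), Ccna2 at 103 against 30.3 (3.38-fold) and Ccnb1 at 140 against 42.0 (3.32-fold). The D cyclins differed by less than 2-fold: the log2 ratios were 0.58 for Ccnd1, 0.02 for Ccnd3 and -0.49 for Ccnd2. The inhibitors of cyclin-dependent kinases did not move as a group, with 1 of 7 at least 2-fold higher and 1 lower. Cdkn2d (p19) was 2.81-fold higher in members, Cdkn2b (p15) 4.56-fold lower on 106 and 20 UMIs, and Cdkn1a (p21) 1.51-fold lower, which at all depths was 2.02-fold. Of 14 p53 targets, 3 had a positive ratio (median -0.41) and 1, Bbc3, was at least 2-fold lower.

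**Figure D4:**
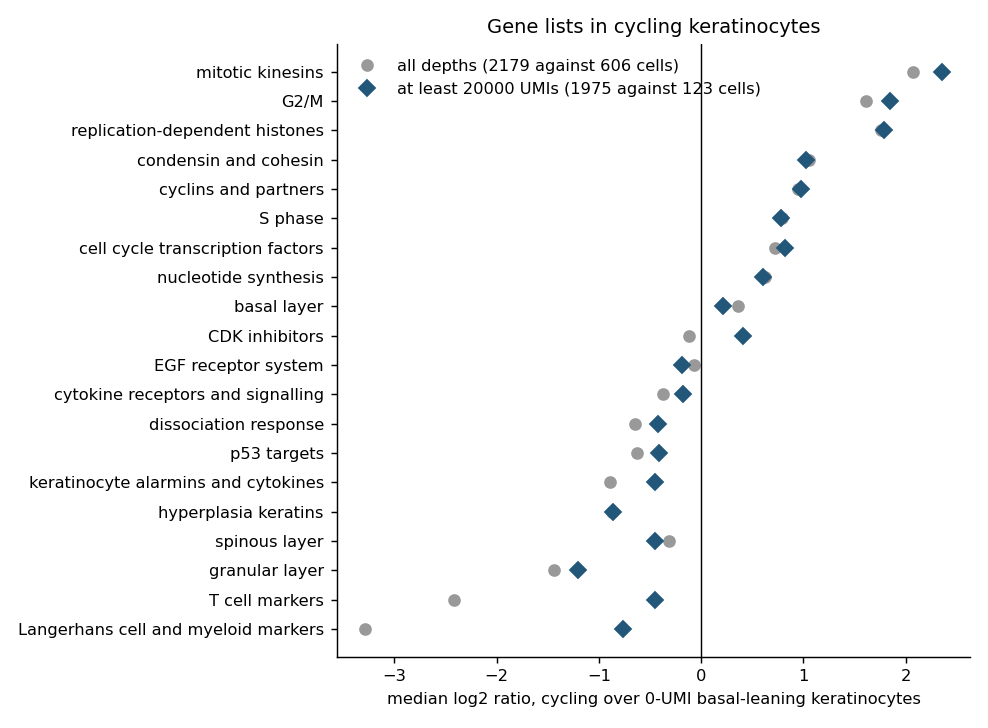
Median log2 ratio of 20 gene lists in basal-leaning members over basal-leaning keratinocytes with 0 Mki67+Top2a UMIs, for all depths (grey circles) and for cells of at least 20000 UMIs (blue diamonds). Mitotic kinesins (2.07 and 2.35) lie farthest to the right in both settings, and among the lists drawn the T cell and myeloid markers move most between them; the melanocyte markers (-5.35 and -0.30), which move more, and the hair follicle, fibroblast and endothelial, and Merkel cell and sebocyte lists are not drawn.

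Part of the differentiation genes had lower summed levels in members. Of 14 spinous-layer genes 5 were at least 2-fold lower and 0 higher (median -0.45), led by Calml3 (4.79 against 41.4 CPM) and the desmosomal Dsg1a (log2 ratio -2.02) and Dsc1 (-2.01). Of 8 granular-layer genes measured, 5 were lower (median -1.20), among them the cornified envelope precursor Sprr1a, at 14.6 against 86.5. Per cell, the spinous list had a median of 36.8 UMIs per 10000 in members and 39.9 in the comparison cells, but a 90th percentile of 60.1 against 98.4, and the granular list had medians of 0.520 and 0.639. The desmosomal genes Dsp (-0.34), Dsc3 (-0.47) and Pkp1 (-0.37) were lower by less than 2-fold. The basal-layer list had no common shift: 10 of 15 genes had a positive ratio (median 0.22), 1 was at least 2-fold higher and 1 lower. Its sum was lower in members, at 1868 against 2659 CPM, with per-cell medians of 15.8 and 20.8 UMIs per 10000, and Ly6d was its most abundant gene in both groups. The list includes the integrin chains Itga6, 1.43-fold higher, and Itgb4, 1.62-fold higher, while Krt15 was 1.86-fold lower and Ly6d 2.23-fold lower. Within members, Krt15 was higher in the cells with the highest Mki67+Top2a level, as given below. Across all basal-leaning cells the same list had a median of 0.36.

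Among genes with at least 200 UMIs, those with the lowest ratios in the deeper cells included 3 of the hair follicle list. Krt79 stood at 22.0 against 285 CPM (12.9-fold lower), Cst6 at 68.1 against 826 (12.1-fold) and Defb6 at 32.5 against 303 (9.34-fold). Members did not share these transcripts evenly, since 20 of the 2181 cells held 53.2% of all Krt79 UMIs, 38.7% of those of Cst6 and 42.4% of those of Defb6. Nor did the comparison cells: the hair follicle list had a median of 1.88 UMIs per 10000 there and 1.33 in members, while the highest of the 123 cells had 1060. Cidea, Ly6g6c, Klk7, Sdr16c6 and Psapl1 were also among the 10 lowest of the genes with at least 200 UMIs. In the Merkel cell and sebocyte list 1 of 3 genes measured was at least 2-fold lower, at a log2 ratio of -5.70. That list summed to 206 against 323 CPM, and its part in these values was not tested.

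Of 4 stress keratins 2 were at least 2-fold lower in members and 0 higher. S100a8 and S100a9, the subunits of calprotectin, had log2 ratios of -0.14 and -0.21. Krt6a was 1.23-fold higher in members, Krt17 1.49-fold lower, Krt6b 2.22-fold lower and Krt16 2.37-fold lower (628 against 1492 CPM). The difference lay in the upper part of the range: the 4 keratins together had a median of 13.9 UMIs per 10000 and an upper quartile of 34.8 in the members, and 9.96 and 42.8 in the comparison cells. Of 20 alarmins, cytokines and chemokines measured, 1 had a positive ratio and 3 were at least 2-fold lower: Slpi (2.93-fold), Sprr2d (2.48-fold) and Tslp (2.34-fold). The exception, the neutrophil chemokine Cxcl5, had 214 UMIs in members and 1 in the comparison cells (log2 ratio 2.59, interval 0.68 to 8.49). At all depths 8 of these 20 genes were at least 2-fold lower, including Il1b at a log2 ratio of -5.28, which was -0.06 in the deeper cells. Receptors and signalling components of the interleukin and interferon-γ pathways were near parity: 0 of 22 differed by 2-fold, with a median of -0.18.

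The level of Mki67 and Top2a within members was accompanied by differences in these same genes. The 546 members with the highest Mki67+Top2a level (4.81 or more UMIs per 10000) were compared with the 546 with the lowest (1.75 or less), at median depths of 33265 and 35010.5 UMIs. Since the pair also chose the members, this too is a description. Of 10384 genes 2.59% were at least 2-fold higher and 1.34% lower in the high cells. All 4 stress keratins were at least 2-fold lower: Krt6a at 677 against 1616 CPM, Krt6b at 62.1 against 219, Krt16 at 290 against 861 and Krt17 at 570 against 1241. Of 9 genes of the EGF receptor system measured, 3 were at least 2-fold lower, 0 were higher and 4 had a positive ratio (median -0.06). The 3 were ligands, with Areg at 24.5 against 107 (4.36-fold lower), Epgn 2.62-fold and Hbegf 2.37-fold lower. The neutrophil factors Csf3 (4.37-fold) and Cxcl3 (4.51-fold) were also lower. Langerhans cell and myeloid markers moved with the level as well: they summed to 454 CPM in the high cells and 277 in the low, with 9 of 10 positive and a median of 0.58 against 0.10 over all genes, and their part in these differences was not tested. Krt15 was higher in the high cells, at 258 against 121, and so were the inhibitors Cdkn2d (4.17-fold) and Cdkn2c (3.30-fold). The G2/M list had a median log2 ratio of 1.21 and the S phase list -0.08, against 0.10 over all genes.

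Members were almost wholly basal by their keratins, as were most keratinocytes captured. The Krt1 and Krt10 share of the 4 gate keratins had a median of 0.641% and a 95th percentile of 4.40%, and it exceeded that of Krt5 and Krt14 in 2 of 2181 members (0.0917%, 0.0111 to 0.331%). It did so in 57 of all 3446 keratinocytes and in 26 of the 634 with 0 Mki67+Top2a UMIs. Among keratinocytes with at least 20000 UMIs, the share that passed the Mki67 and Top2a limit was 82.9% (1534 of 1850) where Krt1 and Krt10 made up under 1%, 65.5% (36 of 55) between 10 and 20%, 33.8% (23 of 68) between 20 and 50% and 6.45% (2 of 31, 0.791 to 21.4%) above that. After thinning to 20000 UMIs, 33.8% (52 of 154, 26.4 to 41.8%) of cells with at least 10% Krt1 and Krt10 had 3 or more Mki67+Top2a UMIs, against 68.9% (67.0 to 70.8%) of the other 2354; without thinning the values were 39.6% and 81.4%.

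**Figure D5:**
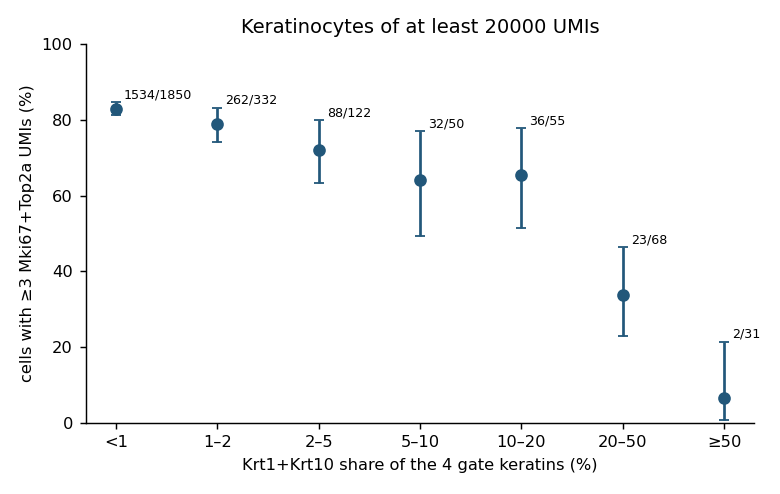
Share of epidermal keratinocytes of at least 20000 UMIs that passed the limit of 3 Mki67+Top2a UMIs, by the Krt1+Krt10 share of the 4 gate keratins, with exact 95% binomial intervals and the counts behind each point. The share is 82.9% in the lowest group and 6.45% in the highest.

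A small group of members held a larger share of Krt1 and Krt10 transcripts beside those of Mki67 and Top2a. Most members held some, at medians of 0.844 UMIs per 10000 for Krt1 and 0.641 for Krt10. In 64 members (2.93%, 2.27 to 3.73%) Krt1 and Krt10 made up at least 10% of the 4 gate keratins, a limit set after the values were seen. These cells had a median of 37447 UMIs against 36179 in the other 2117. Whether some were doublets of a basal and a suprabasal cell was not tested; by doublet score 4.77% of all members and 1.76% of the other cells were among the 139 highest. Krt1 stood at 2750 against 122 CPM, by selection. Other genes of the spinous layer followed: 7 of 14 were at least 2-fold higher and 0 lower (median 1.01 against -0.17 over all 11307 genes, of which 4.17% were higher and 11% lower), with Mt4 at 48.7 against 1.70, Dsg1a at 50.4 against 3.07 and Dsc1 at 13.1 against 0.693. Among genes with at least 200 UMIs, the ceramidase Acer1 (13.3-fold) and the fatty acid elongase Elovl4 (12.3-fold) were in the 10 highest. Both serve the lipid barrier. Retnlg, best known from neutrophils, ranked second at 65.6 against 2.58 CPM. The Langerhans cell and myeloid markers summed to 259 against 344 CPM; the source of Retnlg was not tested. Krt16 (5.61-fold) and Krt6b (6.12-fold) were higher, Krt6a was not (log2 ratio 0.10).

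In the same 64 cells 11 of 15 genes of the basal-layer list were at least 2-fold lower and 1, Ly6d, higher (median -1.91). The sum of the list ran the other way, at 2974 against 1866 CPM, since Ly6d was its most abundant gene, at 2479 against 611. Among the lower genes were Itga6 at 43.2 against 209 CPM, Itgb4 at 23.7 against 93.4 and Col17a1, the hemidesmosomal collagen, at 44.5 against 168. Of 10 genes of the EGF receptor system, 6 were at least 2-fold lower, among them the ligands Areg (5.97-fold) and Epgn (2.88-fold). The fructose transporter Slc2a5 had 0 UMIs in these cells and 674 in the other members, and the upper end of its log2 interval was -2.44. The G2/M list differed little, with a median log2 ratio of -0.05 and 0 of 52 genes past 2-fold, while 8 of 43 S phase genes were at least 2-fold lower (median -0.54), beside 11% and -0.17 over all genes. Ccnd2 was 4.42-fold lower and Ccnd1 1.92-fold lower, beside 3 of 18 cyclins and partners at least 2-fold lower and 0 higher. Of 7 inhibitors measured, Cdkn2b (11.6-fold, on 27 UMIs) and Cdkn1a (2.60-fold) were higher and Cdkn1c, on 1 UMI, was lower (log2 ratio -1.53, interval -7.42 to 0.39).

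Dividing cells of the dermal library served as a comparison from other lineages. In it 136 low-keratin cells with a median of 19981 UMIs had 3 or more Mki67+Top2a UMIs, and 80.9% of them carried Ptprc (CD45), against 4.26% of members. These dermal cells were a mixture, with the myeloid Lyz2 at 3755 CPM and the T cell gene Cd3g at 143. The same minimum of 3 UMIs was applied to members, whose median depth was 36211 UMIs. The comparison sets 1 library against another, so tissue, sort and library cannot be told apart. Cyclins and their partners differed in both directions. Cdk1 stood at 220.5 CPM in members and 212 in the dermal cells, Ccna2 at 103 and 112, Plk1 at 57.3 and 52.6, and Ccnd1 at 78.3 and 74.0. Ccnb1 was 1.61-fold, Cdc25a 1.66-fold and Cdc25c 1.64-fold higher in members, and Ccnb2 1.55-fold and Ccne2 1.80-fold lower. Of these, Cdc25a, Cdc25c and Ccne2 rested on 28, 39 and 46 UMIs in the dermal cells. Cdk6 (69.9 against 29.9) and Ccnd2 (77.8 against 41.1) were higher in members, whereas Ccnd3 (50.5 against 125), Cdkn1a (2.59-fold), Cdkn2c (23.0 against 61.1) and Cdkn2d (50.4 against 133) were higher in the dermal cells, as was E2f1 (12.5 against 39.0). Cdkn3 differed by 1.28-fold in the same direction. So did the inhibitors Cdkn1b (12.4 against 22.1), Cdkn1c (1.79 against 6.45) and Cdkn2a (3 against 18 UMIs, 0.037 against 6.11 CPM). Cdkn2b went the other way, with 106 UMIs in members and 0 in the dermal cells.

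Markers of other cell types were present in members at uneven levels. The 9 T cell markers summed to 240.0 CPM in basal-leaning members, most of it from Thy1 (109) and Trbc2 (87.2), which stood at 156 and 145 in the dermal dividing cells. Ptprc had 1.21 CPM and Cd3g, a T cell receptor subunit, 11.8 against 6939 in the epidermal T cells. Cd74, the most abundant of the Langerhans cell and myeloid markers, stood at 137, and 20 members held 26.5% of its UMIs. The Merkel cell genes Krt20, Krt8 and Atoh1 and the endothelial Cdh5 were at 0, but the other genes of their lists were not. In basal-leaning members the 8 Merkel cell and sebocyte markers summed to 206 CPM, with Mgst1 the most abundant. The 8 fibroblast and endothelial markers summed to 1.56 CPM, with Pecam1 the most abundant. Of 12 genes of the response to tissue dissociation, 0 differed by 2-fold between members and comparison cells in the deeper set (median -0.42) and 1 at all depths.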

How the data were processed

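Epidermal and dermal cells were profiled by 10x Chromium 3′ single-cell RNA sequencing. The authors deposited whole-number UMI counts per gene and cell barcode, not normalized, for 31053 mouse genes; the matrix headers name Cell Ranger 3.0.2, and the submitters' processing notes name CASAVA and mm10. Members and gene lists were chosen with earlier results of these data known. Cells were selected by the stated limits in Python 3.11.15 (numpy 2.4.6, scipy 1.17.1, pandas 2.3.3). UMIs were summed over cells of a group, scaled to 1000000 (CPM) and compared as log2 ratios with 0.5 UMIs added, for genes that reached 50 UMIs in both groups combined; intervals are exact (conditional binomial for ratios, Clopper-Pearson for shares) and cover counting error only. The ratio was tested on simulated data. Genes named are those of the lists and the 15 highest and 10 lowest ratios where the combined count reached 200, without mitochondrial, ribosomal, Gm and Rik genes. The 10 genes at each end of the comparisons of G2/M-high with S-high and of suprabasal- with basal-leaning members could also be named. Some genes outside these lists were named from the deeper cells, the Mki67 and Top2a comparison or members with at least 10% Krt1 and Krt10. They were chosen after their values were seen. Doublets were kept; Scrublet in scanpy 1.11.5 called 8 of 4173 cells automatically, too few to be usable, so removal of the 139 highest scores (0.8% per 1000 cells), 104 of them members, served as an alternative. Gene positions are from GENCODE on GRCm38, in which 30934 of 31053 identifiers were found.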

Additional observations from a re-analysis of the deposited data

How the results depend on the processing

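Of 73 values recomputed under alternatives planned for this comparison, 59 stayed within their limits (within the exact interval for a share, within 1.5 times for a count or for the fold of a median), 14 moved and 0 changed sign. A limit of 2 Mki67+Top2a UMIs gave a suprabasal-leaning share of 0.41%, and the filter of at most 5% mitochondrial UMIs and 200 to 5000 genes left 1169 members. The count of genes at least 2-fold lower in members, 949, became 471 in cells of at least 20000 UMIs, 345 with each cell thinned to 5000 UMIs, 1538 with a minimum of 20 UMIs per gene and 369 with 200. With the mean of per-cell levels 884 genes were higher and 1433 lower, and the G2/M median was 0.94; with a pseudocount of 5 UMIs 189 were higher and 1499 lower. In suprabasal-leaning cells, 2 members against 26 cells, 49 genes were higher and 74 lower, the median of the alarmin and cytokine list was -0.036, and no S phase gene reached 50 UMIs. Scaling the pseudocount, added after seeing the data, gave 438 and 906. The 10% keratin limit, added likewise, gave a share of 2.93%; leaving out shared barcodes, requiring 1 UMI per 10000 and thinning to 20000 UMIs, also added, moved no value past its limits. The causes were not tested. A single library per tissue and the dependence of the selection on depth limit every share given.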
